A study of Mus musculus with 4 samples.

Results

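The genes described here are 49 markers of dividing cells, 21 that act in S phase, when DNA is copied, and 28 that act in mitosis, when the copies are separated. The rule that picked them matches gene symbols, but the members were chosen with earlier results of these data known. All 49 had a row among the 55487 genes of the count table. RNA was taken from whole mammary fat pad (MFP), the adipose tissue in which the ducts of the mammary gland grow. The mice were labelled c57b/6j, 2 young at 8 weeks and 2 aged at 14 months, and the methods of the study describe females from a commercial breeder. No transgene, treatment or tumour is given for these samples. The tissue was lysed whole, so every cell type of the pad, and of any tissue taken with it, contributed RNA. The sources used here do not say which pad was taken, whether a lymph node was removed from it, or whether a sample was 1 animal or a pool.

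A cell commits to division when cyclin-dependent kinases release E2F transcription factors from the retinoblastoma family, and E2F then switches on genes for loading the MCM helicase at origins, for making nucleotides and for running the replication fork. Later, B-Myb with the MuvB complex, and FoxM1 after it, raise the mitotic genes, whose promoters often carry a cell cycle homology region (CHR) and CCAAT boxes, the sites bound by NF-Y. Most cells of adult fat rest outside the cycle, so transcripts of both sets are scarce there, whereas growing ducts, haematopoietic precursors and the lymphocytes of a lymph node can hold many dividing cells.

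The sequences before the starts of 4 members are shown because they hold these motifs in different combinations. Each line gives the 160 bases before the RefSeq start, 5′ to 3′ on the strand of the gene, in build GRCm38.p6. Capitals mark the motif words searched. The CHR was searched as TTTGAA or TTCGAA, the CCAAT box as CCAAT, and the E2F site as TTTCCCGC, TTTCGCGC, TTTGCCGC or TTTGGCGC, all on both strands. Mki67, Cdc20 and Plk1 are mitotic, and Mcm5 is an S-phase gene.
Mki67 (chr7:135716380-135716539, minus strand): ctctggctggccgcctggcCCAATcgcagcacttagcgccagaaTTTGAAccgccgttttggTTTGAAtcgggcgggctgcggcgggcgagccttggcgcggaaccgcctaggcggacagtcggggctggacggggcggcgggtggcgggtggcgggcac
Cdc20 (chr4:118437344-118437503, minus strand): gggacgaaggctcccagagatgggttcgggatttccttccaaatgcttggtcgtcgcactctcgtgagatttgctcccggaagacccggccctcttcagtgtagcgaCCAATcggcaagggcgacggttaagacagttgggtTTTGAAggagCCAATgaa
Plk1 (chr7:122159275-122159434, plus strand): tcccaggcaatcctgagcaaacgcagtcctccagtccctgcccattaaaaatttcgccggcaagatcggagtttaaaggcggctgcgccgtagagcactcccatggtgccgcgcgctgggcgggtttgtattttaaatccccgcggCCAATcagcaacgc
Mcm5 (chr8:75109349-75109508, plus strand): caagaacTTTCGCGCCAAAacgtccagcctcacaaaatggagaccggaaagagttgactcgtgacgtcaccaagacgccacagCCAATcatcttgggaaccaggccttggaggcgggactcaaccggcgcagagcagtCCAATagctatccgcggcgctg
Mki67 held 2 CHR words, the nearer ending 93 bases before the start, with a CCAAT box upstream of both. In Cdc20 a single CHR word lay between 2 CCAAT boxes. Plk1 had 1 CCAAT box and none of the CHR letters in these bases. Mcm5 carried 2 E2F words that overlap each other on opposite strands, and 2 CCAAT boxes. The few bases of Cdc20 nearest the start, with its second CCAAT box, also lie inside the GENCODE gene. A longer part of the Ccnb1 and Pcna windows does so, and these were searched but are not printed, while Ccna2 had no window in the table.

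Counted over the 250 bases before every RefSeq start, CCAAT boxes were the commonest of the 3 motifs in both sets. Of the 28 mitotic genes, 22 had a window, 23 windows in all, and of the 21 S-phase genes 18 had one, 20 windows in all. A CHR word lay in 39.1% of the mitotic windows and 20.0% of the S-phase windows, against 17.1% of all 32851 promoter windows of that length. CCAAT occurred in 82.6% of the mitotic and 70.0% of the S-phase windows, against 33.8% of all. Every window of a member that held a CHR word also held a CCAAT box, which was 39.1% of the mitotic and 20.0% of the S-phase windows, against 6.0% of all. E2F words were found in 25% of the S-phase windows and 4.3% of the mitotic windows, against 1.9% of all. Such a match is a description of letters and not evidence of binding in fat.

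**Figure D1:**
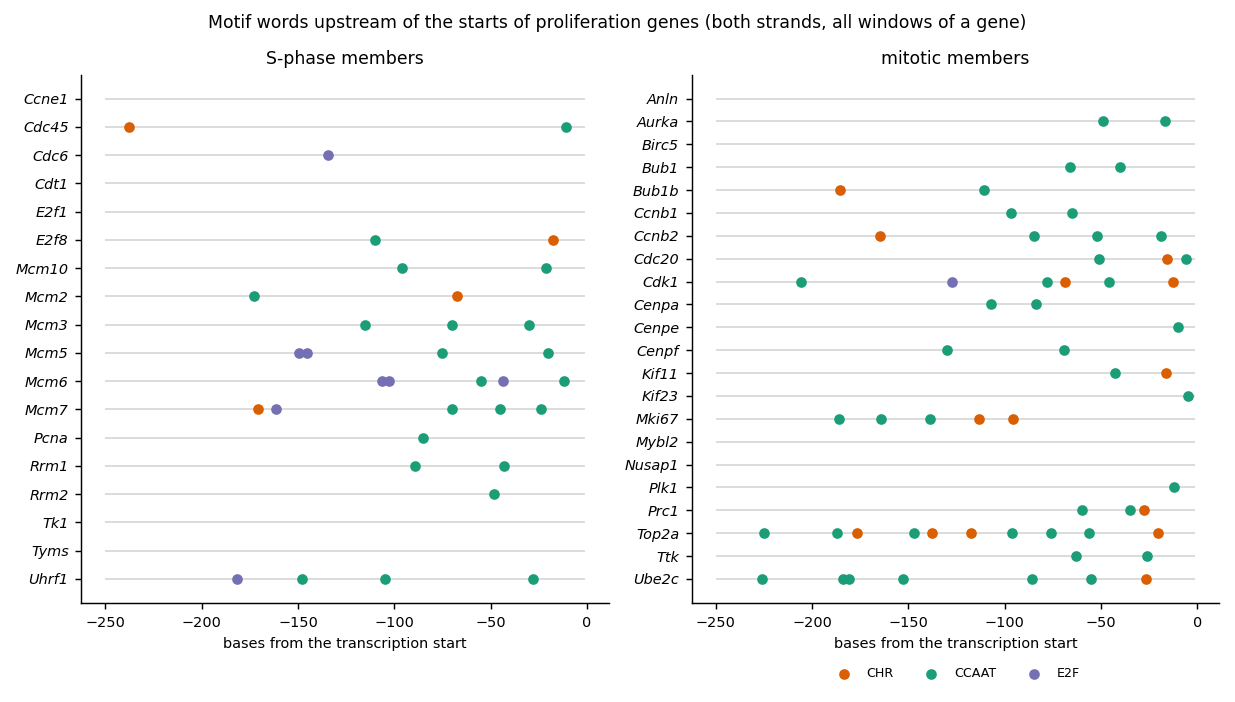
Positions of CHR, CCAAT and E2F words (points) in the 250 bases before the RefSeq starts of S-phase members (left) and mitotic members (right), with bases from the transcription start on the x axis and 1 gene per line. The CCAAT points lie in most genes of both panels, whereas CHR words were in 9 of 23 mitotic and 4 of 20 S-phase windows, and E2F words in 1 and 5.

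Library totals were 83936413 and 98402403 counts for aged replicates 1 and 2, and 77661766 and 68803304 for young replicates 1 and 2, so that 3 counts correspond to 0.0337 to 0.0407 CPM (the count of a gene relative to the library total, scaled by the TMM method). These limits cover counting error only. Markers of fat (7 genes, among them Fabp4) summed to 5620 to 8945 CPM and those of mammary epithelium (10 genes) to 1295 to 2994 CPM, so both fat and gland were present. Markers of skeletal muscle summed to 10161 and 14148 CPM for the young pads but 39122 and 62257 CPM for the aged pads. Markers of B and T lymphocytes differed widely between the libraries. The 8 B cell markers summed to 597 CPM in young replicate 1, 78.5 in aged replicate 2, 7.46 in aged replicate 1 and 3.83 in young replicate 2, and the 8 T cell markers to 712, 56.0, 14.7 and 6.19 CPM in the same order. None of these 16 genes was at 0 in any library.

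Proliferation genes were a small part of every library. They took 0.0215% and 0.0262% of the counts in aged replicates 1 and 2, and 0.0627% and 0.0336% in young replicates 1 and 2. In bulk tissue, fewer dividing cells and less RNA of these genes per cell cannot be told apart. All 49 members passed the filter on low counts, which kept 22485 genes. The S-phase members summed to 172 and 206 CPM in aged replicates 1 and 2 and to 357 and 213 CPM in young replicates 1 and 2. For the mitotic members the sums were 48.4, 83.3, 237 and 100 CPM in the same order. Young replicate 1 thus stood well above the others in both sets, and the 2 aged samples lay below both young ones, though for S phase aged replicate 2 and young replicate 2 were nearly level.

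**Figure D2:**
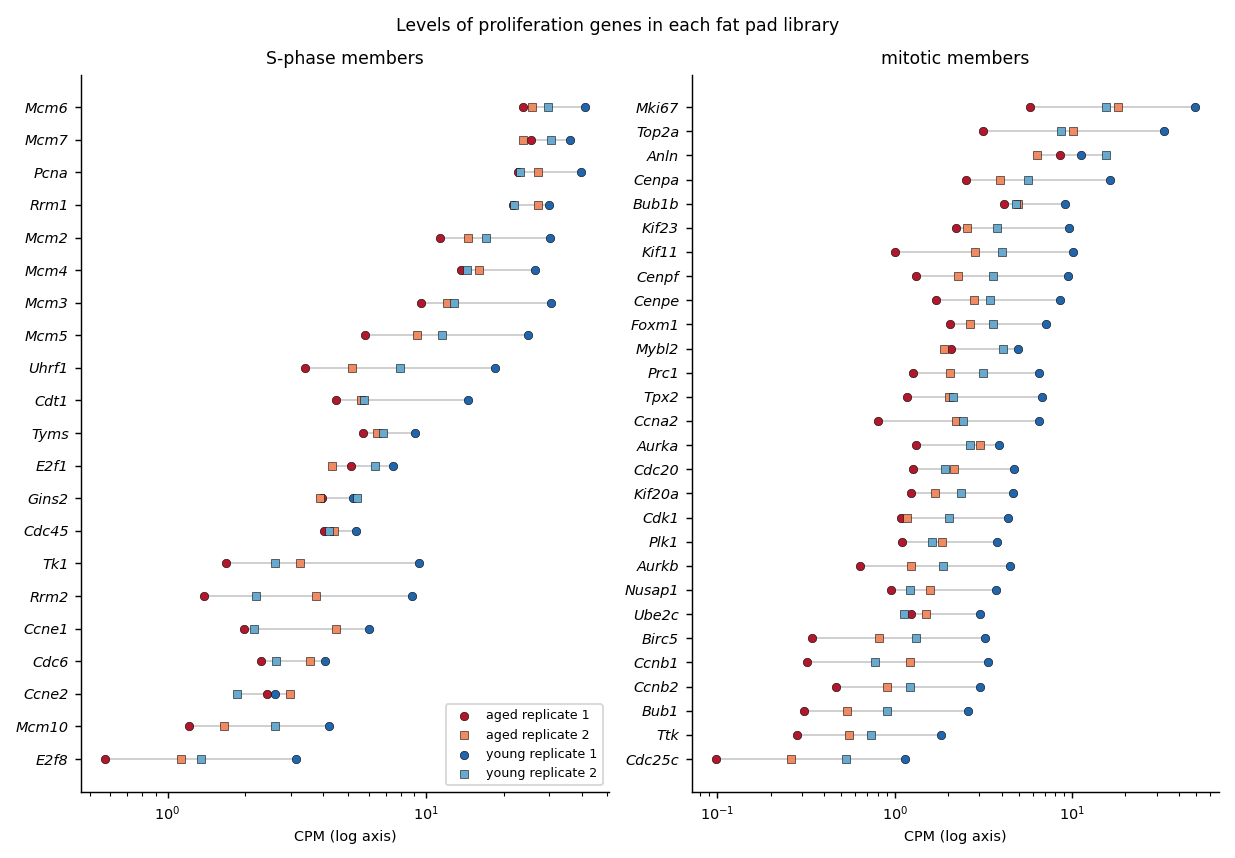
Level of each S-phase member (left) and mitotic member (right) in the 4 libraries, in CPM on a log axis, with 1 point per library (red and orange aged, dark and light blue young) and a grey line from the lowest to the highest. Young replicate 1 was the highest sample for 46 of the 49 genes and aged replicate 1 the lowest for 42.

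Young replicate 1 held the highest value of 46 members, 19 of S phase and 27 of mitosis, compared with 34.1% of all genes tested. The exceptions were Gins2 and Anln, highest in young replicate 2, and Ccne2, highest in aged replicate 2. Aged replicate 1 held the lowest value of 42 members, against 23% of all genes. In 31 members, 12 of S phase and 19 of mitosis, both aged samples lay below both young samples, and in 0 they lay above. Over all genes tested these shares were 22.8% below and 23.3% above. The order most often seen, in 26 members, was young replicate 1, young replicate 2, aged replicate 2, aged replicate 1. Another 16 members differed from that order in having aged replicate 2 above young replicate 2.

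The comparison of age was fitted with edgeR's quasi-likelihood test on the counts of all genes. It gave a lower estimate in the aged pads for 48 of the 49 members, with a median log2 fold change (aged minus young) of −1.19 against −0.04 over all genes. The median was −1.48 for the mitotic members, which ran from −2.22 (Cdc25c) to −0.58 (Aurka), and −0.52 for the S-phase members, from −1.63 (Uhrf1) to 0.27 (Ccne2). No member passed an adjusted p of 0.05, and neither did any other gene (0% of the genes tested). The smallest adjusted p of a member in edgeR's test was 0.404, for Mybl2. At an unadjusted p under 0.05 there were 13 members lower in the aged samples, 2 of S phase and 11 of mitosis, and 0 higher. Over all genes, 3.31% were lower and 7.24% higher at that threshold. DESeq2, the tool the study names, called 1 member, Mybl2, lower at an adjusted p of 0.00662, while 0.692% of the genes to which it gave an adjusted p were called lower. Its calls over the whole table leaned the other way, with 710 genes higher and 155 lower in the aged samples. The smallest p that an exact permutation test, two-sided, could reach for 1 gene in this design is 0.333.

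The size of these values depended on single libraries. Without young replicate 1 the median log2 fold change was −0.69 for the mitotic and −0.20 for the S-phase members. Without young replicate 2, the S-phase median was −0.83. The mitotic and S-phase medians were −1.14 and −0.51 without aged replicate 1, and −1.93 and −0.58 without aged replicate 2. Several estimates were much smaller without young replicate 1, at −0.08 for Tk1, −0.36 for Mki67, −0.37 for Top2a, −0.20 for Cdt1, −0.17 for Cdc20 and −0.09 for Bub1b. Those of Mki67 and Top2a were −0.86 and −1.05 without aged replicate 1, and −2.49 and −2.73 without aged replicate 2. Mybl2 was at −1.05 and Anln at −1.06 without young replicate 1.

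**Figure D3:**
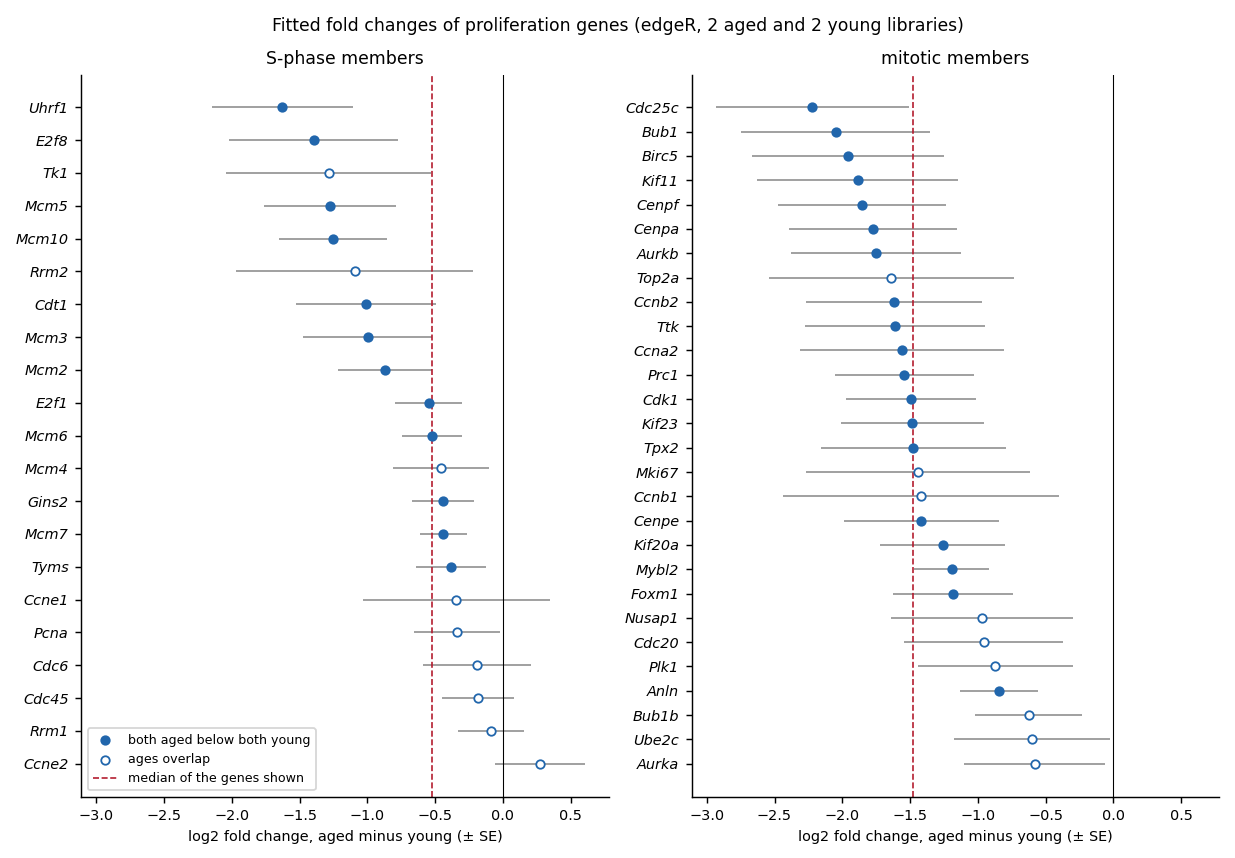
Log2 fold change, aged minus young, of each S-phase member (left) and mitotic member (right) from edgeR's fit over 2 aged and 2 young libraries, with bars of 1 standard error. Filled points mark the 31 members with both aged samples below both young, and the dashed lines the medians, −0.52 and −1.48. All points except Ccne2 lie left of 0, and none passed the adjusted test.

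The MCM helicase is the motor that unwinds DNA at the fork. Its 6 subunits had log2 fold changes of −1.28 to −0.44, and in 5 of them, all but Mcm4, both aged samples lay below both young. Mcm6, the subunit with the highest CPM, stood at 23.7 and 25.6 CPM in the aged and 41.2 and 29.6 CPM in the young samples (log2 fold change −0.52, SE 0.22). Mcm5, with the largest difference, stood at 5.81 and 9.23 CPM in the aged and 24.9 and 11.6 CPM in the young samples (−1.28, SE 0.49). The aged and young values of both genes did not overlap, but in each the 2 young samples were further apart than the lower young sample was from the higher aged one.

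The genes that load and fire the origins number 5, and all had lower estimates, from −1.25 to −0.19. Cdt1, which brings the helicase to the origin, was at 4.49 and 5.59 CPM in the aged and 14.6 and 5.77 CPM in the young samples. Only young replicate 1 stood apart for it. Mcm10, which helps to activate the helicase, was at 1.21 and 1.65 CPM in the aged and 4.21 and 2.62 CPM in the young samples, a difference of −1.25 (SE 0.40, unadjusted p 0.0325 and adjusted p 0.453 in edgeR's test). Cdc6 and Cdc45 had differences of −0.19 each, less than their SEs of 0.40 and 0.27. For Gins2, at −0.44, 67.3% of the exon bases overlap exons of Gse1 on the other strand. The strand setting of the counting is not given in the sources used here, so it is not known whether reads of the 2 genes were separated.

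The genes that supply nucleotides all had lower estimates, none under an unadjusted p of 0.05 in edgeR's test. Rrm1, the large subunit of ribonucleotide reductase, was nearly level at 21.6 and 27.1 CPM in the aged and 29.8 and 22 CPM in the young samples (−0.09, SE 0.24). Its partner Rrm2, the subunit whose level is known to follow S phase, had an estimate of −1.09 with an SE of 0.87. Tk1, the thymidine kinase of dividing cells, was at 1.69 and 3.25 CPM in the aged and 9.43 and 2.60 CPM in the young samples (−1.29, SE 0.75). Aged replicate 2 exceeded young replicate 2 in each of these 3 genes. Tyms, which makes thymidylate, had −0.38 (SE 0.26).

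Pcna, the sliding clamp of DNA polymerase, had the highest level per length of all 49 members, with a mean of 11.7 RPKM (CPM per kilobase of exon). It stood at 22.8 and 27.0 CPM in the aged and 39.7 and 23.2 CPM in the young samples, so the ages overlapped (−0.34, SE 0.32). Uhrf1, which carries DNA methylation over to the new strand, was at 3.40 and 5.17 CPM in the aged and 18.5 and 7.91 CPM in the young samples. That was the largest difference of the S-phase set (−1.63, SE 0.52, unadjusted p 0.0337 and adjusted p 0.456 in edgeR's test). Without young replicate 1 the Pcna estimate was 0.10, and that of Rrm1 0.15.

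The cyclin E and E2F genes act at the entry to S phase. E2f1, an activator of the S-phase genes, was at 5.11 and 4.31 CPM in the aged and 7.43 and 6.36 CPM in the young samples (−0.55, SE 0.25), without overlap. E2f8, a repressor that acts later in S phase, was at 0.575 and 1.12 CPM in the aged and 3.13 and 1.34 CPM in the young samples (−1.40, SE 0.62). The 2 cyclins E, which activate CDK2, had estimates of −0.34 (Ccne1, SE 0.69) and 0.27 (Ccne2, SE 0.33). Ccne2 was the only member with a higher estimate in the aged samples, at 2.42 and 2.97 CPM against 2.60 and 1.86 CPM in the young, and its difference was within its SE.

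Per length, the median mitotic member lay below the median S-phase member. Their mean levels ran from 0.103 RPKM for Cdc25c to 2.21 RPKM for Mki67, with a median of 0.653 RPKM, against 0.284 to 11.7 RPKM and a median of 1.84 RPKM in the S-phase set. Mki67, the Ki-67 protein that coats mitotic chromosomes, is the usual marker of cycling cells (ENSMUSG00000031004, chr7:135689784-135716361, minus strand, GRCm38). It stood at 5.82 and 18.2 CPM in the aged and 49.6 and 15.4 CPM in the young samples. The ages overlapped, since aged replicate 2 was above young replicate 2, and the estimate was −1.44 (SE 0.83). Top2a, the topoisomerase that untangles sister DNA, followed the same order at 3.16 and 10.2 CPM in the aged and 32.9 and 8.60 CPM in the young samples (−1.64, SE 0.90).

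The cyclins and kinase of mitotic entry had estimates between −2.22 and −1.42. Ccna2, cyclin A, which acts from S phase to early mitosis, was at 0.807 and 2.20 CPM in the aged and 6.48 and 2.41 CPM in the young samples (−1.56, SE 0.75). Cdc25c, the phosphatase that activates CDK1, was the scarcest member and had the largest difference of all 49. Only 8 and 23 reads were counted in aged and 94 and 39 in young libraries, or 0.0978 and 0.258 against 1.15 and 0.529 CPM (−2.22, SE 0.71, adjusted p 0.457 in edgeR's test). Cdk1, the kinase itself, was at −1.49 (SE 0.48). Its B cyclins were at −1.42 (Ccnb1, the only one of the 5 with overlapping ages) and −1.62 (Ccnb2).

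Kinases of mitosis and of its checkpoint ranged from −2.05 to −0.58. Bub1b, the BubR1 checkpoint protein and the one of highest CPM, was at 4.15 and 4.93 CPM in the aged and 9.15 and 4.84 CPM in the young samples (−0.62, SE 0.39), so 3 samples were close and young replicate 1 was above them. Bub1, its relative at the kinetochore, was at 0.306 and 0.539 CPM in the aged and 2.60 and 0.908 CPM in the young samples (−2.05, SE 0.69), without overlap. Aurkb, the kinase that corrects chromosome attachment, and Ttk, which starts the checkpoint signal, had estimates of −1.75 and −1.61 without overlap. In Plk1 and Aurka, which act at the spindle poles, the ages overlapped.

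Both genes of the anaphase-promoting complex had overlapping ages. Cdc20, the activator of the complex, was at 1.26 and 2.15 CPM in the aged and 4.70 and 1.91 CPM in the young samples (−0.96, SE 0.59). Ube2c, its ubiquitin-conjugating enzyme, was at 1.24 and 1.5 CPM in the aged and 3.02 and 1.12 CPM in the young samples (−0.60, SE 0.58). Exons of Tnnc2, fast skeletal muscle troponin C, lie opposite 22.8% of the Ube2c exon bases, and Tnnc2 itself reached 20579 and 41275 counts for the aged pads, 6729 and 8271 for the young. Its part in the Ube2c values was not tested.

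In all 3 genes of the centromere and kinetochore both aged samples lay below both young. Cenpa, the histone that marks the centromere, was at 2.53 and 3.93 CPM in the aged and 16.4 and 5.65 CPM in the young samples (−1.77, SE 0.62). Cenpf, a large kinetochore protein, was at 1.31 and 2.28 CPM in the aged and 9.44 and 3.56 CPM in the young samples (−1.86, SE 0.62). The motor Cenpe was at −1.42 (SE 0.57).

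Of the 8 genes of the spindle and of cytokinesis, 7 had no overlap, the exception being Nusap1, a protein that bundles microtubules. Birc5, survivin, a subunit of the chromosomal passenger complex, was at 0.342 and 0.820 CPM in the aged and 3.22 and 1.31 CPM in the young samples (−1.96, SE 0.71). Anln, anillin of the cleavage furrow, had another order of samples, at 8.55 and 6.32 CPM in the aged and 11.2 and 15.5 CPM in the young (−0.84, SE 0.29). It was highest in young replicate 2. The motors Kif11, Kif20a and Kif23 and the microtubule proteins Tpx2 and Prc1 had estimates of −1.89 to −1.26. Exons of Cdc23 lie opposite 29.3% of the Kif20a exon bases, and their part in its values was not tested.

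Mybl2 and Foxm1, the transcription factors of the mitotic programme, had no overlap either. Mybl2, which encodes B-Myb, was at 2.07 and 1.89 CPM in the aged and 4.95 and 4.09 CPM in the young samples (−1.19, SE 0.28, unadjusted p 0.0114 and adjusted p 0.404 in edgeR's test). The 2 samples of each age were closer to one another than to any sample of the other age. Foxm1 was at 2.06 and 2.66 CPM in the aged and 7.14 and 3.58 CPM in the young samples (−1.18, SE 0.44).

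Pairs of single libraries were compared next, because the lymphocyte content differed so widely between them. Aged replicate 1 and young replicate 2 were the closest in it, the aged one 1.95-fold higher in B cell and 2.37-fold higher in T cell markers. In the other pair named by the rule, young replicate 1 exceeded aged replicate 2 by 7.61-fold in B cell and 12.7-fold in T cell markers, so those 2 were not alike. Between aged replicate 1 and young replicate 2 the median difference was −1.08 on the log2 CPM scale for the mitotic and −0.32 for the S-phase members, and −0.01 over all genes. It was below 0 in 27 of 28 mitotic members (all but Ube2c) and 20 of 21 S-phase members (all but Ccne2), against 11385 of all 22485 genes. Summed mammary epithelial markers were 1.20-fold and stromal progenitor markers 2.07-fold higher in that young library, the latter with 4 of 6 genes in that direction. Summed adipocyte markers were 1.59-fold and muscle markers 2.77-fold higher in the aged one. Over the 4 libraries, all 7 adipocyte and all 8 muscle markers had both aged samples above both young. The stromal sums were 1737 and 1237 CPM for the aged against 3082 and 3602 CPM for the young pads. That list was split, with both aged below both young in 3 of its 6 genes and above in 2. Its median log2 CPM was 6.53 and 6.32 in aged replicates 1 and 2, and 5.76 and 6.21 in young replicates 1 and 2. The part of these cell types in the difference was not tested.

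Aged replicate 2 minus young replicate 1 gave −1.63 for the mitotic members, all 28 below 0, and −0.72 for the S-phase members, 20 of 21 below 0. Of all genes tested, 50.2% were below 0 in that pair. The other pairings gave the widest and the narrowest gap. Aged replicate 1 minus young replicate 1 was −2.42 for the mitotic and −0.95 for the S-phase members. Aged replicate 2 minus young replicate 2 was −0.42 for the mitotic members, 19 of 28 below 0, and −0.08 for the S-phase members, 12 of 21 below 0. These shares were 67.9% and 57.1%, against 48.9% of all genes tested, so the S-phase share was near that of all genes. In that last pair the aged library held 20.5-fold more B cell and 9.05-fold more T cell marker RNA. Each pair is 1 library against 1, with no replicate check.

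**Figure D4:**
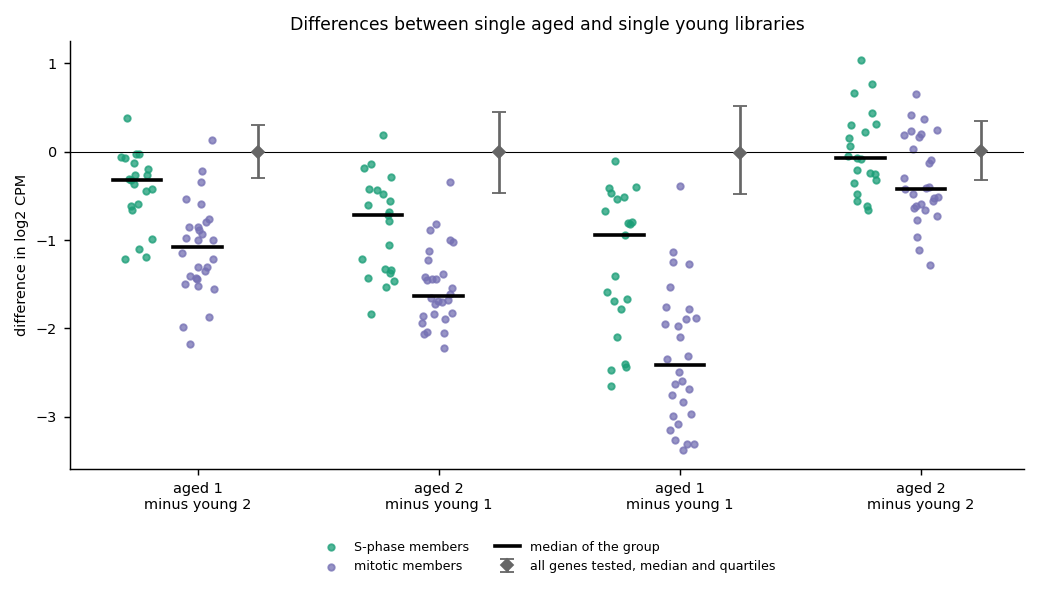
Difference in log2 CPM between 1 aged and 1 young library, for the 4 possible pairs, with 1 point per S-phase member (green) or mitotic member (purple), black bars at their medians, and the median and quartiles of all genes tested in grey. The mitotic median was below the S-phase median in each pair, at −1.08 against −0.32 in the pair closest in lymphocyte markers and −0.42 against −0.08 in the pair with the narrowest gap.

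Libraries of the same age also differed. Young replicate 1 exceeded young replicate 2 by 2.35-fold in the summed mitotic and 1.68-fold in the summed S-phase members, with 156-fold more B cell and 115-fold more T cell marker RNA. Aged replicate 2 exceeded aged replicate 1 by 1.72-fold and 1.20-fold, with 10.5-fold more B cell and 3.82-fold more T cell marker RNA. Genes listed for lymph node stroma (5 genes, 3 of them past the filter, among them Cr2) also had their highest sum in young replicate 1. It was 111 CPM against 0.813 to 7.55 CPM elsewhere. Whether that RNA came from stroma or from B cells was not tested. Of the 3, 1 was lower in aged replicate 2 than in aged replicate 1. Germinal centre B cell markers summed lowest in young replicate 1 (18.1 CPM against 19.9 to 23.7). Of their 4 tested genes, 3 were higher there than in young replicate 2. Plasma cell markers were highest in aged replicate 2 (156 CPM against 38.8 to 64.0). The sum of the 5 erythroid precursor markers ran from 58.9 to 78.8 CPM, highest in young replicate 1. Their 3 tested genes had a mean log2 CPM of 3.19 there and of 3.20 to 3.59 elsewhere, so only the sum was highest. The part of these cells in the proliferation values was not tested. Mammary epithelial markers were at 1295 CPM in young replicate 1 against 2994 CPM in young replicate 2.

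**Figure D5:**
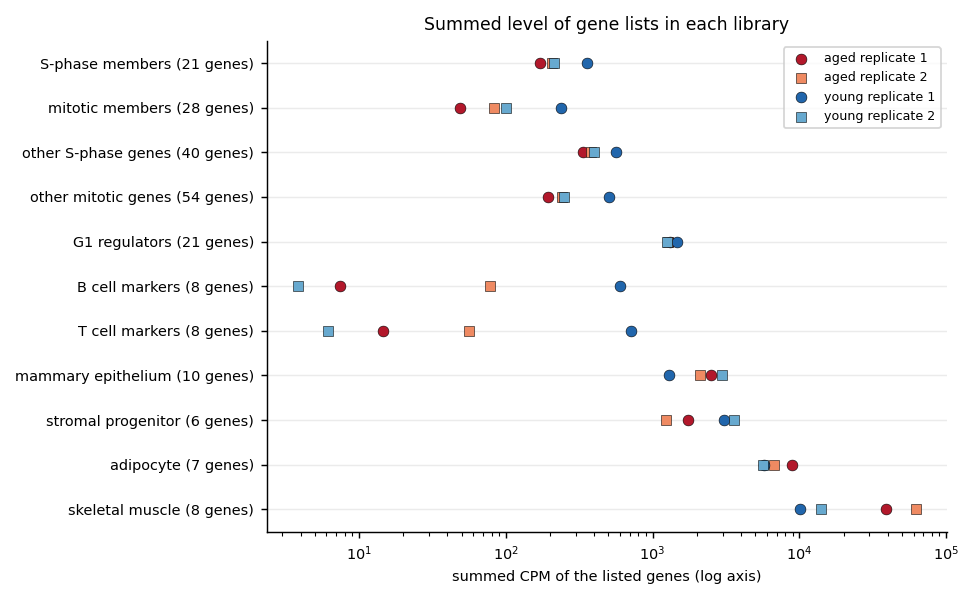
Summed CPM of each gene list in the 4 libraries, on a log axis, with 1 point per library (red and orange aged, dark and light blue young). B and T cell markers spread over 2 orders of magnitude with young replicate 1 highest, the mitotic members ran from 48.4 to 237 CPM, and the G1 regulators stayed between 1262 and 1461 CPM.

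Further genes of the same machinery, listed by function, lay in the same direction. Of 40 other S-phase genes (polymerases, clamp loaders, chromatin assembly and repair factors of the fork), 38 had lower estimates in the aged samples, with a median of −0.58. In edgeR's test 11 were lower and 0 higher at an unadjusted p under 0.05, and 28 had both aged below both young. Over all genes tested, 3.31% were lower and 7.24% higher at that p. Both aged lay below both young in 22.8% of all genes and above in 23.3%. The largest difference was that of Orc1, a subunit of the origin recognition complex (−2.22, SE 0.68). Of 54 other mitotic genes (condensins, kinesins, kinetochore and cytokinesis proteins), 53 had lower estimates, with a median of −1.31. At that p 10 were lower and 1 was higher, and 39 had both aged below and 1 both aged above both young. Depdc1a (−2.63, SE 1.00) and Pbk, a mitotic kinase (−2.45, SE 0.74), had the largest differences. The gene that was higher was Pttg1, securin, which blocks the separation of the sister chromatids until anaphase. It was named after its values were seen, at 17.4 and 19.2 CPM in the aged and 12.8 and 12.6 CPM in the young samples (0.53, SE 0.17, adjusted p 0.458 in edgeR's test).

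The 21 regulators of G1 (D cyclins, their kinases, the retinoblastoma family, other E2F and MuvB subunits), some of which resting cells also express, were more often lower than higher. Their median was −0.13, with 15 lower and 6 higher. In 6 both aged samples lay below and in 2 above both young, against 22.8% and 23.3% of all genes tested. At an unadjusted p under 0.05 in edgeR's test, 2 were lower and 1 was higher, against 3.31% and 7.24% of all genes. E2f2, an activator (−1.15, SE 0.71), and E2f7, a repressor related to E2f8 (−0.85, SE 0.27), had the largest differences. E2f7 was at 3.52 and 2.81 CPM in the aged and 5.39 and 6.04 CPM in the young samples, without overlap.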

How the data were processed

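Whole MFP RNA was sequenced from libraries depleted of ribosomal RNA with a directional kit, in 2 aged and 2 young samples, grouped by their titles. What the authors deposited is a table of raw read counts, 1 column a sample, neither normalized nor pooled. The submitters' processing notes name featureCounts, R 3.6.1 and the builds GRCm38 and hg38, while the aligner, annotation and strand setting are not given in the sources used here. Nothing says whether replicates were separate animals beyond the words of the titles, so p-values measure only the spread between these samples.

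From the deposited counts, genes were filtered with filterByExpr (22485 kept), scaled by TMM and tested with edgeR 4.0.16 (R 4.3.3, quasi-likelihood, age as the only term), with Benjamini-Hochberg adjustment over all genes and a threshold of 0.05. The SE is that of the log2 fold change. CPM uses the scaled totals, and log2 CPM a prior count of 2. DESeq2 1.42.0 was an alternative. Exon lengths, positions and overlaps came from GENCODE on GRCm38, which held 55141 of the 55487 identifiers, and promoter windows from RefSeq (GRCm38.p6). The fit was tested on simulated data. Replicates of 1 age differed by more than sampling noise (chi-square per degree of freedom 273 and 243).

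The members and the lists were chosen with earlier results of these data known. Values in every sample are given for the members of highest mean CPM and of largest log2 fold change in each role group, with Mki67, Top2a and Pcna, and other genes are named by the 2 largest differences in their list, of which 1 is not reported here. Ube2c, Ccne2 and Pttg1 were added after their values were seen. Alternatives covered scaling, filters, DESeq2, blocks, a lymphocyte covariate (the mean log2 CPM of the 16 B and T cell markers) and leaving out each library.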

Additional observations from a re-analysis of the deposited data

How the results depend on the processing

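The median log2 fold changes of the S-phase and mitotic members were negative under every alternative. Without each library in turn they ranged from −0.83 to −0.20 and from −2.03 to −0.69, and the S-phase minus the mitotic median from 0.49 (without young replicate 1) to 1.35 (without aged replicate 2), against 0.96 with all 4. The count of members under an unadjusted p of 0.05 and lower in the aged samples, 13 in edgeR's test, was 24 when only total counts were scaled, 21 with no filter, 25 in DESeq2, 29 with aged replicate 2 paired with young replicate 1 as a block, 32 with the lymphocyte score as a covariate, and 0 (without aged replicate 1) to 37 (without young replicate 2) with a library left out. It was 2 without aged replicate 2. With the replicate number as a block it was 1, but samples of the same number did not deviate together (correlation −0.48 over 22485 genes). Genes under that p in either direction also varied over the whole table. They numbered 2371 of 22485 in the main fit, 2752 with total counts only and 1346 with the replicate block. They numbered 2494 with the pair block, 4575 with the covariate, and, of 34805 genes, 2660 with no filter and 3120 in DESeq2. With a library left out this number changed too. A rise in the member count alone thus does not set the members apart from all genes. Genes called over the whole table numbered 865 in DESeq2 and 80 with the covariate, 1 and 0 of them members, against 0 under each other alternative. Members with both aged below both young numbered 31 to 48 with a library left out (47 without aged replicate 2, 48 without young replicate 2), when fewer samples had to be ordered. The share of 22.8% of all genes holds for all 4 libraries only. No such share was computed with a library left out, so these counts do not show a clearer separation of the ages. Of the members named by the rule, leaving out a library turned the direction of Rrm1 and Pcna: it moved Rrm1 between −0.29 and 0.15 (0.05 without aged replicate 1) and Pcna between −0.67 and 0.10. Total counts alone put the median of all genes at −0.22, with −1.66 for mitotic and −0.70 for S-phase members. The cause of these changes was not tested. A fit without a library assumes that the lone sample of its age varies like the others.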
